A study of Homo sapiens with 12 samples.

Results

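Divergent transcript rows are rows of the gene count table whose symbol is that of a coding gene followed by -DT. Those described here were chosen by their summed counts, as all such rows with at least 240 counts over the 12 libraries, without KCTD13-DT. This gave 83 rows of 588 named -DT and of 61255 rows in the table. The summed counts chose the rows, so their levels are given as a description, whereas the arsenite and line contrasts were not used to choose them. RNA was sequenced from Huh-7.5, an established human hepatocellular carcinoma line, in 3 engineered lines that each expressed the peroxidase APEX2, a proximity-labelling enzyme. The genotypes were APEX-NES, with a nuclear export signal, APEX-NLS, with a nuclear localization signal, and APEX-G3BP1, fused to the stress granule protein G3BP1. All 3 lines therefore carried an APEX construct, and no parental Huh-7.5 cells were among the groups. Each line was collected mock-treated or exposed for 45 minutes to sodium arsenite at 0.5 mM, with 2 numbered libraries per group. Arsenite causes oxidative stress, blocks translation and drives the assembly of stress granules. The study asked how stress alters the transcriptome of these lines, and each genotype was a single engineered line.

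Most mammalian promoters start RNA polymerase II in both directions, and the RNA that leaves upstream of a coding gene is called a divergent or promoter upstream transcript. Such RNAs are usually short-lived, because early polyadenylation signals end them and the nuclear exosome, brought by the NEXT and PAXT adaptor complexes, degrades them. Those that carry the -DT suffix are the longer, spliced or stable ones that were annotated as genes, and each is named for the coding gene that faces it.

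Which strand the table reads is in doubt, and every level below depends on it. The library kit kept the strand of the RNA, but how strand was used in counting is not given in the sources used here. Pairs of rows whose order is well known, chosen for this check after the table was seen, stood in the opposite order. MALAT1, one of the most abundant nuclear RNAs, had 16 to 37 counts in a library, and TALAM1, annotated on the other strand of the same locus, had 44233 to 81932. Of the mitochondrial coding rows MT-ND6, the sole one on the minus strand of the reference, held 244120 counts per kilobase over the 12 libraries, and the 12 on the plus strand held 2848 to 28749. The 8 mitochondrial tRNA rows on the minus strand had a median of 172326 counts per kilobase and the 14 on the plus strand 10921. The 9500 nuclear coding rows with no gene annotated on the other strand held 4.93% of all counts, and the 10346 with one held 37.3%. If the strand setting was reversed, a -DT row holds reads from the strand of its coding partner, or of another gene there, and the partner row holds reads from the divergent strand. The names below are therefore names of rows, a value is not taken as the level of the RNA with that name, and what is said of a gene's function is background on the name.

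The gene models had this arrangement. In GENCODE release 29 (GRCh38) the transcript and its coding partner lay on opposite strands, head to head, in all 83 cases. In 47 the 2 starts were separated by between 0 and 400 bases, with a median gap of 112 bases. In 32 the starts overlapped. The other 4 included USP34-DT, with a gap of 419 bases, EPM2A-DT, with a gap of 63386 bases, and ZNF584-DT, with a gap of -6980 bases, where a negative gap means overlapping starts. PRMT5-DT and AJUBA-DT were neighbours, 27136 bases apart, and no other such pair was found within 50000 bases.

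RefSeq promoter windows, which run from 250 bases before to 50 bases after a gene's start on GRCh38.p14, matched 65 of the 83 divergent transcripts and 65 of their partners. The 250 bases before the coding start are printed for 4 pairs, because in RefSeq each has a space between the 2 starts, written in capitals, that belongs to the promoters of both genes. Each is given 5′ to 3′ on the coding strand, so the coding gene starts just after the last base and the divergent transcript runs leftwards, on the other strand, from the first capital.
ANKRD42 (chr11:83193462-83193711, plus strand): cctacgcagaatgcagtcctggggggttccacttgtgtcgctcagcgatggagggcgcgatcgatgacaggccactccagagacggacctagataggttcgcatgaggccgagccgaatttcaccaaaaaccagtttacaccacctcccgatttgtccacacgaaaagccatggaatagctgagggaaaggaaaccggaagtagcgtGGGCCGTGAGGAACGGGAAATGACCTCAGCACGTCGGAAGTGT
NCK1 (chr3:136861958-136862207, plus strand): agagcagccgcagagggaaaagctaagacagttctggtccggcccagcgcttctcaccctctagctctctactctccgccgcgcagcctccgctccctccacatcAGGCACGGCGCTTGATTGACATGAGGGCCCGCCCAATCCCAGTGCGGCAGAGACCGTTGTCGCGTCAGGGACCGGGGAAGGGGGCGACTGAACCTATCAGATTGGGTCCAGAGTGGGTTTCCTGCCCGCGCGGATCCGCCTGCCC
LRIG2 (chr1:113072948-113073197, plus strand): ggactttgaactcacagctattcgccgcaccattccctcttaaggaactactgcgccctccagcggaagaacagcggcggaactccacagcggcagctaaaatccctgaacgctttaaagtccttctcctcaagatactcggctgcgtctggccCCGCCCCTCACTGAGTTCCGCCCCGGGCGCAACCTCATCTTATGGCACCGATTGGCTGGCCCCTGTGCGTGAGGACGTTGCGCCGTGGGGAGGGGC
WDR5B (chr3:122416063-122416312, minus strand): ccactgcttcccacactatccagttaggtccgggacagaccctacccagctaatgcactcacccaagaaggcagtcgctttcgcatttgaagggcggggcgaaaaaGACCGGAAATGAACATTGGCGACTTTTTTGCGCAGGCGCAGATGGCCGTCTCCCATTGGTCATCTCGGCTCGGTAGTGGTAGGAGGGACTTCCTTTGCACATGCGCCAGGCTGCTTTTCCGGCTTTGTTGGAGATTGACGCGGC
In this RefSeq annotation the gap was 43 bases at ANKRD42, 145 at NCK1, 96 at LRIG2 and 144 at WDR5B. GENCODE 29 differs at each of these pairs. There the annotated genes overlap by 56 bases at ANKRD42, and the gap is 154 bases at NCK1, 104 at LRIG2 and 156 at WDR5B. Between the starts of NCK1 and of LRIG2 lay a CCAAT box and a GC box, and between those of WDR5B a CCAAT box and a match to the antioxidant response element core TGACNNNGC.

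The 65 windows were rich in G and C. Their median GC content was 66.7%, beside 64.3% in the partners' windows and 58.3% in all 27305 windows, and the median ratio of observed to expected CpG was 0.895, 0.891 and 0.580. Motifs were searched on both strands, and matches to different motifs may share bases. The GC box GGGCGG was in 67.7% of the divergent windows and 44.6% of all windows, and the ETS motif CCGGAAG in 23.1% and 10.7%. The cAMP response element TGACGTCA was in 6.15% and 1.98%, the CCAAT box in 29.2% and 35.7%, and the TATA box TATAAA in 3.08% and 12%. The antioxidant response element core, bound by NRF2-type factors, was in 16.9% and 13.6%. The heat shock element was in 0 of 65 and in 0.487% of all windows. The divergent and partner windows overlap at most of these promoters, so they are not separate observations.

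The 12 libraries held between 1090308 and 1461067 counts, so the floor of 3 counts stood at 2.08 to 2.88 CPM, counts relative to the TMM-scaled library size. The summed count of 12 hepatocyte or hepatoma markers was 201 to 438 in each library. Albumin (ALB) held 260 counts over all libraries, transthyretin (TTR) 4 and APOB 1363. FGB was 18.3 ± 6.09 CPM in mock and 52 ± 7.09 CPM in arsenite libraries (SD, n = 6 each). AFP was 59.5 ± 14.8 CPM in G3BP1, 24.7 ± 5.79 CPM in NES and 28.9 ± 6.82 CPM in NLS libraries (SD, n = 4 each). APOB, FGB and AFP were named after their values were seen. Of 3 fibroblast markers COL1A1 and DCN held 1 count each, while COL3A1 was 9.73 ± 2.41 CPM in mock and 40.8 ± 8.88 CPM in arsenite libraries (SD, n = 6 each). The summed fibroblast count was 6 to 71, the summed blood count 0 to 4 and the summed endothelial count 0 to 14, with HBB and VWF at 0 in every library, and the part of these markers in the results below was not tested. As the strand setting is not given, a row's reads cannot be assigned to the divergent transcript or to a gene with an exon opposite. The labels do not say whether the 2 libraries of a group came from separate cultures, so the p-values measure only the spread between these libraries, which may be technical.

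The 83 rows together held 174369 counts, 1.12% of all counts. This share was between 1.11% and 1.14% in every library, mock or arsenite, and between 0.979% and 1.01% once the most counted row was left out. Summed counts ran from 240 to 19970 with a median of 1320, and the 5 highest rows held 33% of the total. MVP-DT, beside the major vault protein gene, was the highest with 19970 counts (11.5% of the members' counts). It was followed by USP34-DT (11021), WDR5B-DT (10327), HEATR5A-DT (9191) and EPM2A-DT (7042), which face genes for a deubiquitinase, a WD repeat protein, a HEAT repeat protein and laforin. Per kilobase of annotated exon, over all 12 libraries, the order differed. NQO1-DT was highest, at 6542 counts per kilobase, and MVP-DT had 4944, USP34-DT 5614, HEATR5A-DT 5132, WDR5B-DT 3572 and EPM2A-DT 1151, against a median of 663 over the 83 rows. The lowest sums that entered were FIGNL2-DT (240), ZNF567-DT (256) and PHLDA1-DT (262), and the highest that did not were DCTN6-DT (226), AFDN-DT (225) and TMEM109-DT (216).

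The coding partner rows held far fewer counts. With a reversed strand setting each row would hold reads from the strand opposite its own exons. That would not simply exchange the counts within a pair. No exon bases were shared with the partner in 34 rows opposite another gene's exon and in 16 with no exon opposite. Which RNA of a pair was the more abundant was therefore not tested. On the per-kilobase scale the divergent row was above its partner row in 80 of 83 pairs, with a median of 7.49 counts per kilobase in the partners. In summed counts it was above in 79 of 83. The partner rows had a median of 40 counts over 12 libraries, and 28 of them had 3 counts or fewer in every library. MVP had 5 counts beside 19970 in MVP-DT, MAGOH had 8 beside 2127, and OSER1 had 4 beside 655.

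The members differed in what else lay on the opposite strand. In 34 rows exons of another gene but none of the partner were opposite, and in 33 of these only the 3′ end of that gene was inside the span of the divergent transcript. In 33 rows an exon of the coding partner was opposite, though in 9 of these another gene shared more exon bases, and in 16 no exon was. The median level was 1042 counts per kilobase in the first class, 575 in the second and 396 in the third. Rows opposite to the divergent transcript were lower than it in 64 of 67 cases per kilobase of exon. MVP-DT has 38.0% of its exon bases opposite MAZ, a transcription factor gene with 78 counts, and NQO1-DT has 72.5% opposite NOB1, a ribosome assembly gene with 35 counts. PHLDA1-DT lies with all of its 779 exon bases opposite exons of PHLDA1, whose own row held 30 counts. At 10 rows no gene of any kind was annotated opposite the exons, among them OSER1-DT, RNF139-DT, BOLA3-DT and ATF6-DT. On the same strand, 3 rows shared exon bases with another gene.

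**Figure D1:**
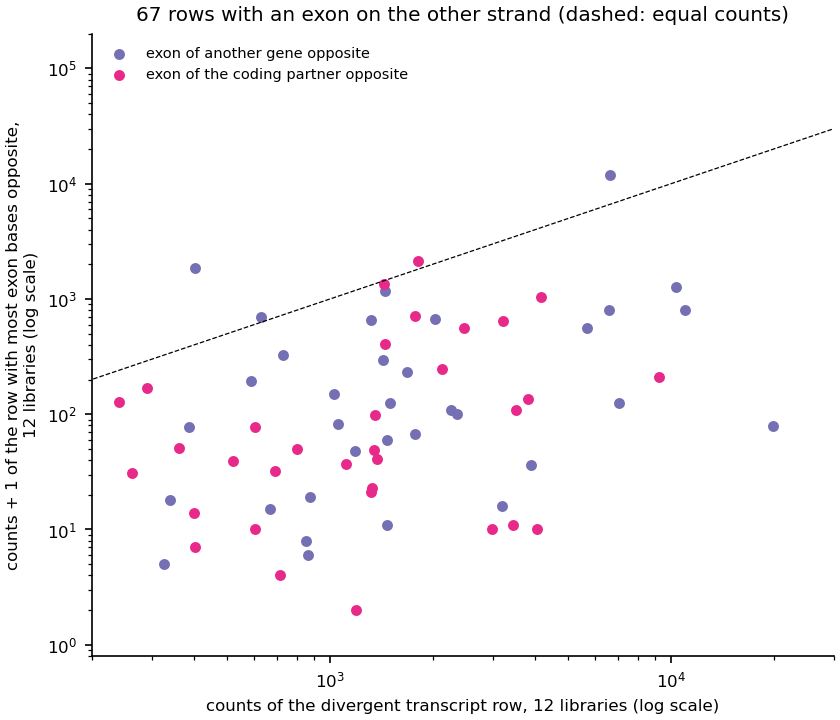
Summed counts over the 12 libraries of each divergent transcript row (horizontal axis, log scale) against those of the row with most exon bases on the opposite strand plus 1 (vertical axis, log scale), for the 67 rows with an opposite exon. Points under the dashed line of equal counts are rows above their opposite row, 63 of 67 in summed counts.

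After arsenite, averaged over the 3 lines, 32 of the 83 rows changed, 19 higher and 13 lower (edgeR's quasi-likelihood test, Benjamini-Hochberg adjusted p under 0.05 over 13108 rows tested). That is 38.6% of the members, beside 38.0% of all rows tested. Higher calls made up 22.9% of the members and 19.4% of all rows, and lower calls 15.7% and 18.6%. Among rows with a sum of at least 240 they made up 23.0% and 22.3%. The share called was therefore close to the background, and it was below the 45.3% among all 7461 rows with a sum of at least 240. It stood beside 40.2% among 622 antisense rows named -AS1 and 39.5% among 129 rows named LINC, taken with the same minimum sum. Most changes were small. The median log2 fold change was 0.05 in the members and -0.01 over all rows, and of the 32 called rows 1 changed at least 2-fold. All 32 had the same sign in the 3 lines, and 52 of the 83 members had a value above 0. In bulk RNA, fewer cells with a transcript and less of it per cell cannot be told apart.

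**Figure D2:**
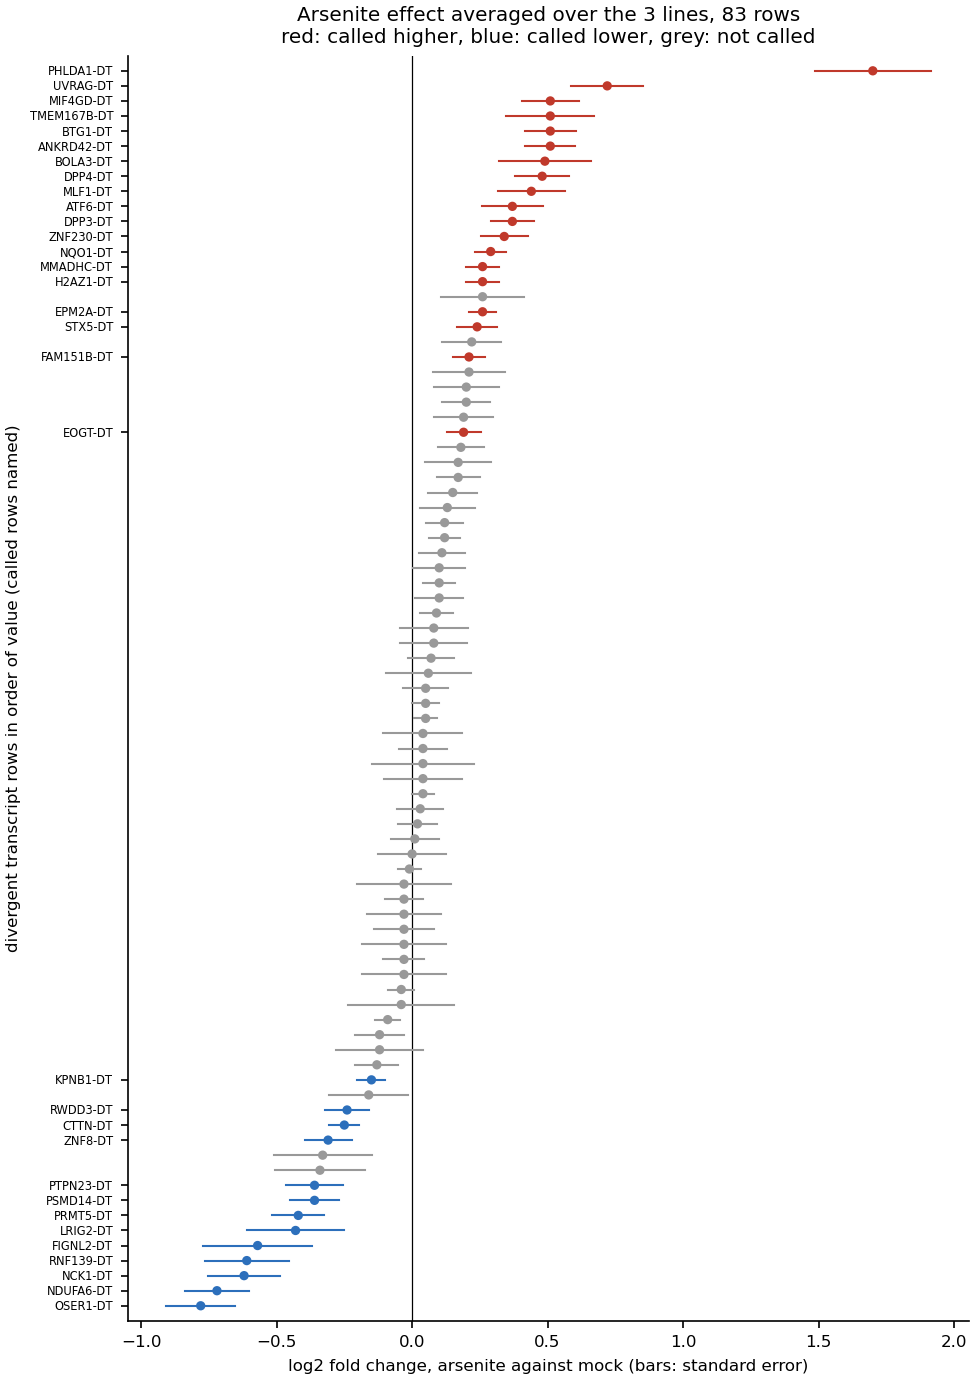
Log2 fold change of arsenite against mock, averaged over the 3 lines (horizontal axis, bars are standard errors), for each of the 83 divergent transcript rows in order of the value (vertical axis, called rows named). PHLDA1-DT stands alone at 1.70 and the lowest value is -0.78 in OSER1-DT, with most rows between -0.5 and 0.5.

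The row that rose most faces PHLDA1, a gene of the pleckstrin homology-like family known to respond to stress and growth signals. PHLDA1-DT had a lowest, median and highest level of 2.33, 7.85 and 14.7 CPM in the 6 mock libraries and of 18.9, 27.1 and 29.8 CPM in the 6 arsenite libraries. The ranges did not overlap, and the lowest mock library, NLS replicate 1, held 3 counts and was at the floor. The mean rose from 7.88 ± 4.75 to 25.9 ± 4.15 CPM (SD, n = 6 each). This was a log2 change of 1.70 ± 0.21 (SE) with an adjusted p of 6.12e-11 by edgeR's quasi-likelihood test. On the log2 scale the NES effect was 1.12, the NLS effect 2.10 and the G3BP1 effect 2.30. The PHLDA1 row itself was at 1.70 ± 0.99 CPM in mock and 2.20 ± 0.55 CPM in arsenite libraries (SD, n = 6 each) and was too low to be tested.

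UVRAG-DT was next, opposite the gene of a Beclin 1 partner that acts in autophagy and endosomal traffic. Its levels were 24.0, 30.6 and 33.6 CPM (lowest, median, highest) in mock and 44.6, 45.8 and 66.1 CPM in arsenite libraries, with no overlap. The log2 fold change was 0.72 ± 0.13 (SE), with an adjusted p of 3.61e-06 by edgeR's quasi-likelihood test. BTG1-DT, beside an antiproliferative gene, had 61.5, 71.8 and 80.8 CPM in mock and 68.1, 101.2 and 140.2 CPM in arsenite libraries. Its ranges overlapped through a G3BP1 arsenite library, and the log2 fold change was 0.51 ± 0.09 (SE; adjusted p 2.61e-06 by edgeR's quasi-likelihood test).

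Of the other rises, ANKRD42-DT, whose RefSeq promoter is printed above, had 55.9, 78.0 and 105.7 CPM in mock and 92.8, 114.0 and 133.0 CPM in arsenite libraries. The groups overlapped, since the G3BP1 mock libraries, at 105.7 and 100.1 CPM, lay inside the arsenite range. Its log2 fold change was 0.51, as in MIF4GD-DT and TMEM167B-DT. MIF4GD, a partner of the histone mRNA binding protein SLBP, faces MIF4GD-DT, and the mean of that divergent row rose from 56.8 ± 12.9 to 79.8 ± 11.4 CPM (SD, n = 6 each). TMEM167B-DT had at most 21.0 CPM in mock and at least 21.1 CPM in arsenite libraries, so the groups were separate but adjoining. Without NES arsenite replicate 1 its value was 0.36 and it was no longer called. BOLA3-DT, beside a mitochondrial iron-sulfur cluster gene, rose by 0.49, and DPP4-DT, beside the cell-surface peptidase gene, by 0.48 on the log2 scale. BOLA3-DT was not called without NES mock replicate 2, NLS arsenite replicate 2 or G3BP1 mock replicate 2, each left out alone, with values no lower than 0.40. With DESeq2, TMEM167B-DT and BOLA3-DT were not called (adjusted p 0.0507 and 0.0739).

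The row that fell most faces OSER1, oxidative stress responsive serine rich 1. OSER1-DT had 39.4, 53.6 and 74.5 CPM (lowest, median, highest) in mock and 26.1, 31.4 and 37.4 CPM in arsenite libraries, and the ranges did not overlap. The mean went from 54.7 ± 11.5 to 31.8 ± 3.69 CPM (SD, n = 6 each), which is -0.78 ± 0.13 on the log2 scale (SE; adjusted p 2.55e-07 by edgeR's quasi-likelihood test). No annotated gene is opposite its exons. NDUFA6-DT, a transcript of 20 annotated exon blocks beside the gene of a respiratory complex I subunit, went from 53.3, 64.1 and 89.3 CPM to 30.8, 40.0 and 47.1 CPM. These ranges did not overlap either, and the log2 fold change was -0.72 ± 0.12 (SE; adjusted p 3.29e-07 by edgeR's quasi-likelihood test). OSER1-DT and NDUFA6-DT fell in each line tested alone, by between 0.66 and 0.93 on the log2 scale.

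NCK1-DT, beside the gene of an SH2 and SH3 domain adaptor, had 36.7, 50.5 and 60.5 CPM in mock and 28.3, 32.5 and 38.6 CPM in arsenite libraries. One G3BP1 mock library lay inside the arsenite range, and the log2 fold change was -0.62. RNF139-DT, beside the gene of an endoplasmic reticulum ubiquitin ligase, had 27.5, 35.2 and 39.5 CPM in mock and 13.9, 22.5 and 30.9 CPM in arsenite libraries, with a log2 fold change of -0.61. PRMT5-DT, beside an arginine methyltransferase gene, had no overlap, with at least 80.9 CPM in mock and at most 77.6 CPM in arsenite libraries. Its log2 fold change was -0.42, and that of PSMD14-DT, beside the gene of the proteasome lid's deubiquitinase, was -0.36. The calls of 2 poorly counted rows were fragile. FIGNL2-DT (-0.57) was not called without NES arsenite replicate 1 or G3BP1 arsenite replicate 1, when it was no closer to 0 than -0.42. LRIG2-DT (-0.43) was not called without any 1 of 8 libraries, nor with no filter on low counts (adjusted p 0.119) or a mean of at least 1 CPM (0.0616). With DESeq2 neither row was called (adjusted p 0.0866 and 0.139).

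**Figure D3:**
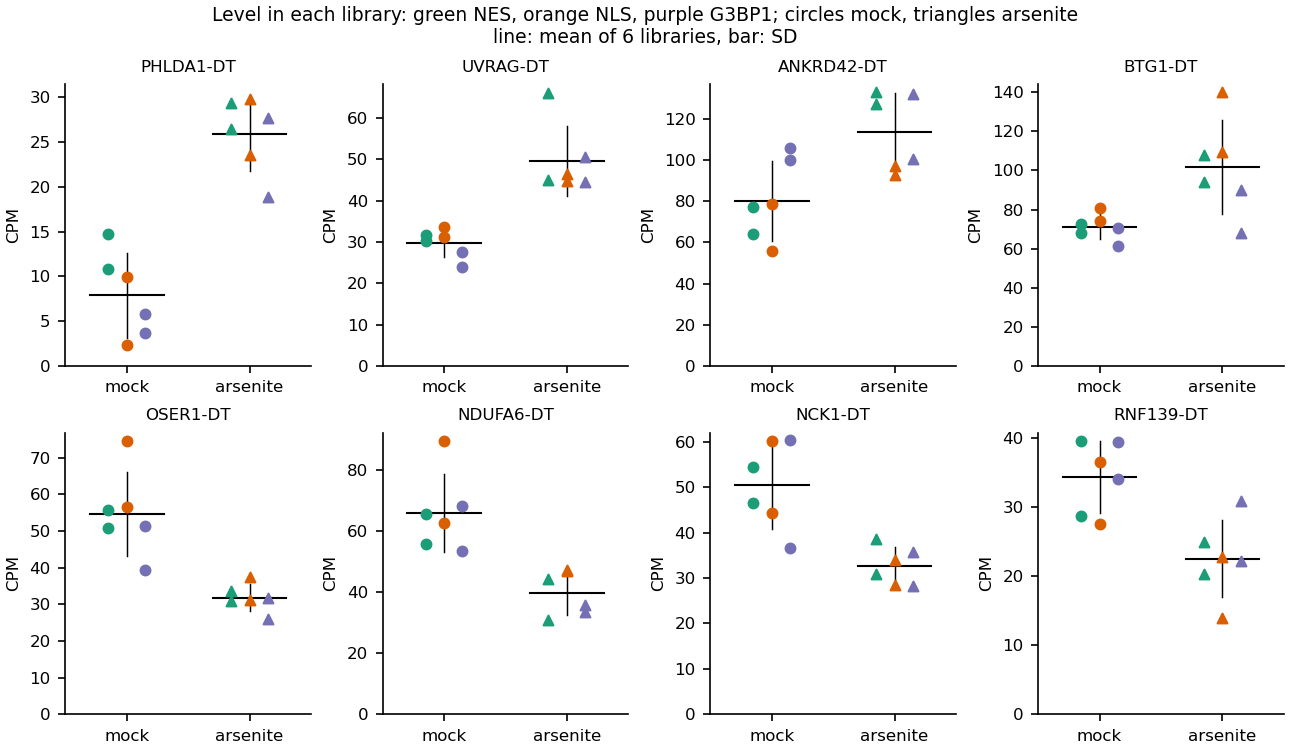
CPM (vertical axes, from 0) of the 4 largest rises and the 4 largest falls in each mock and arsenite library, coloured by line, with the mean of 6 libraries and a bar of 1 SD. In PHLDA1-DT, UVRAG-DT, OSER1-DT and NDUFA6-DT no arsenite library reaches the mock range.

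The remaining 16 called rows, listed after their values were seen, had smaller values on the log2 scale in each direction. The higher ones were MLF1-DT (0.44), ATF6-DT and DPP3-DT (0.37 each), ZNF230-DT (0.34), NQO1-DT (0.29), MMADHC-DT, H2AZ1-DT and EPM2A-DT (0.26 each), STX5-DT (0.24), FAM151B-DT (0.21) and EOGT-DT (0.19). ATF6 encodes a sensor of endoplasmic reticulum stress and NQO1 a quinone reductase that is a classical NRF2 target. The lower ones were PTPN23-DT (-0.36), ZNF8-DT (-0.31), CTTN-DT (-0.25), RWDD3-DT (-0.24) and KPNB1-DT (-0.15). Of the 5 most counted rows only EPM2A-DT was called, from 422.8 ± 36.6 to 508.4 ± 30.8 CPM (SD, n = 6 each). MVP-DT was at 1314 ± 142.3 CPM in mock and 1342 ± 106.8 CPM in arsenite libraries (SD, n = 6 each; adjusted p 0.516 by edgeR's quasi-likelihood test).

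All 6 mock libraries were separate from all 6 arsenite libraries at shares close to those of the whole table. This was found upwards in 5 members (6.02%, beside 6.44% of all rows), namely PHLDA1-DT, UVRAG-DT, TMEM167B-DT, MLF1-DT and H2AZ1-DT, and downwards in 4 (4.82%, beside 4.97%), namely OSER1-DT, NDUFA6-DT, PRMT5-DT and CTTN-DT. MLF1-DT, H2AZ1-DT and CTTN-DT are named here because they belong to these counts, after their values were seen. By arrangement, 6 rows rose and 4 fell among the 34 with an exon of another gene opposite, 11 rose and 4 fell among the 33 opposite the partner's exon, and 2 rose and 5 fell among the 16 with none. The medians were 0.05, 0.10 and -0.02 on the log2 scale, and the difference between these classes was not tested.

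Each line was also compared alone, in a model with 1 mean per line and treatment. In NES 14 rows changed (16.9%, beside 20.3% of all rows), 10 higher and 4 lower, where 10.9% and 9.41% of all rows were. In NLS 16 changed (19.3%, beside 17.8%), 8 higher and 8 lower, where the background was 9.67% and 8.14%. In G3BP1 13 changed (15.7%, beside 16.4%), 7 higher and 6 lower, where it was 9.22% and 7.15%. Among all rows with a sum of at least 240 25.4% were called in the NES line, 23.5% in the NLS line and 21.6% in the G3BP1 line, each share above that of the members. PHLDA1-DT, NQO1-DT, OSER1-DT and NDUFA6-DT changed in all 3 lines, and 26 rows in at least 1. These counts depended on the test: DESeq2 called 3 rows in NES, 3 in NLS and 2 in G3BP1. Left-out libraries also lowered them, to 9 in NES without mock replicate 1, to 6 in NLS without arsenite replicate 2 and to 5 in G3BP1 without mock replicate 1.

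No row was shown to respond differently among the lines. The joint test of the 3 line effects called 0 of 83 by edgeR's quasi-likelihood test and 0 by DESeq2, beside 0.183% of all rows. At an unadjusted p under 0.05 there were 5, with 0.163 as the lowest adjusted p. They were EPM2A-DT, ANKRD42-DT, AHI1-DT, DCAF8-DT and CEP192-DT, of which AHI1-DT and DCAF8-DT are named only after their values were seen. The NES, NLS and G3BP1 log2 fold changes were 0.33, 0.03 and 0.44 for EPM2A-DT and 0.87, 0.49 and 0.17 for ANKRD42-DT.

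The divergent rows were then set beside their coding partners. In 34 pairs both rows passed the filter on low counts. Of these partner rows 10 rose (29.4%, beside 19.4% of all rows tested) and 2 fell (5.88%, beside 18.6%). Across the 34 pairs Pearson's r between the 2 log2 fold changes was -0.177 and Spearman's rho -0.128, and in the 21 pairs with no shared exon bases they were -0.130 and -0.104. These describe the pairs, which share libraries and depth, and many partner rows were near the floor. Both rows were called in 3 pairs, and in 0 of them in the same direction. RNF139, on chromosome 8, had 16.3, 23.3 and 24.0 CPM in mock and 28.6, 36.1 and 41.2 CPM in arsenite libraries (lowest, median, highest), without overlap. It rose by 0.67 ± 0.15 (SE; adjusted p 1.41e-04 by edgeR's quasi-likelihood test) while RNF139-DT fell by 0.61. No exon was opposite RNF139-DT.

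PTPN23, a phosphatase family gene of endosomal sorting, rose by 0.37 while PTPN23-DT fell by 0.36, and the partner's ranges overlapped. In the NES line PTPN23 had 0.81, in the NLS line 0.27 and in the G3BP1 line -0.01 (unadjusted p of the joint difference 0.0418 and adjusted p 0.572 by edgeR's quasi-likelihood test). FIGNL2 rose by 0.75 while FIGNL2-DT fell by 0.57, at 126 and 240 summed counts, and the FIGNL2 call was lost in 5 of 12 fits that left out a library, with DESeq2 (adjusted p 0.0925) and with no filter on low counts (0.0581). The largest partner rises had no called change in the divergent row. DDX19A, an RNA helicase of mRNA export, went from 9.49 ± 2.70 to 28.9 ± 6.26 CPM (SD, n = 6 each), a rise of 1.58 on the log2 scale, and DDX19A-DT had a value of 0.03. DCAF8, a ubiquitin ligase receptor, rose by 1.5 and DCAF8-DT had -0.13. RNFT1 rose by 1.35 beside -0.03 in RNFT1-DT, and WDR5B by 1.11 beside -0.01 in WDR5B-DT.

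The WDR5B pair shows the contrast at high counts. WDR5B had 22, 32.4 and 38.0 CPM in mock and 57.4, 67.2 and 73.5 CPM in arsenite libraries. WDR5B-DT, annotated from the other side of the 144 bases printed above, had 629.4, 680.0 and 748.3 CPM and 637.5, 666.4 and 765.7 CPM. The partner's groups were separate, and those of the divergent row covered each other. GOLPH3 (0.78), CD2BP2 (0.61) and ICMT (0.60) also rose with no call in the divergent row. The CD2BP2 values were 1.24 in NES and 0.84 in NLS but -0.36 in G3BP1 (unadjusted p of the joint difference 0.0252 and adjusted p 0.507 by the same test). Downwards, CHUK, which encodes the kinase IKK alpha, fell by 1.22, from 46.6 ± 9.19 to 19.6 ± 3.62 CPM (SD, n = 6 each), beside 0.13 in CHUK-DT, and MFSD4B fell by 0.36 beside -0.34 in MFSD4B-DT, which was not called. Conversely, NDUFA6 had a log2 fold change of 0.04 and NQO1 of -0.02, neither called, where their divergent rows were called.

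**Figure D4:**
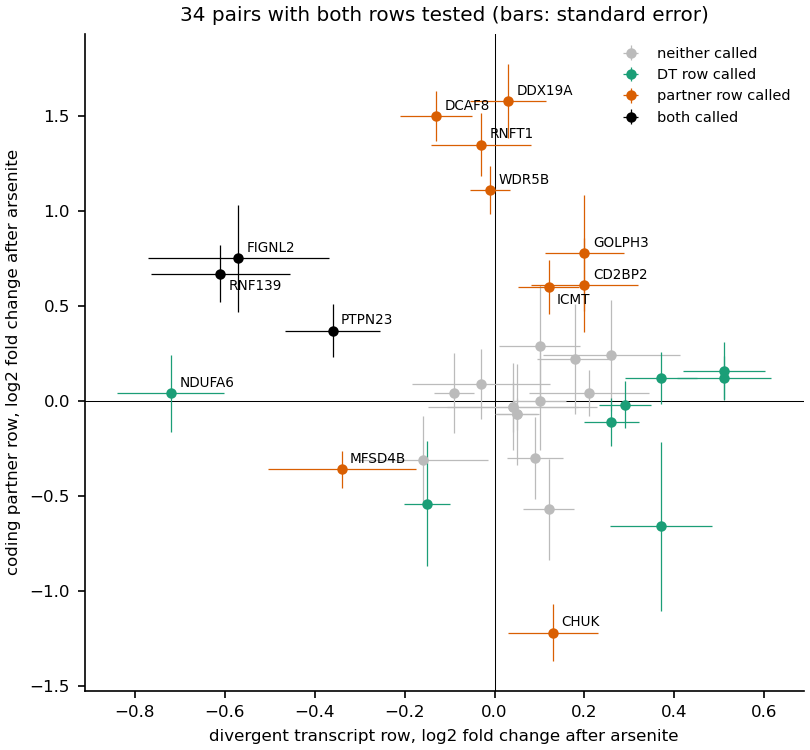
Log2 fold change after arsenite, averaged over the 3 lines, of the divergent transcript row (horizontal axis) and of its coding partner row (vertical axis) for the 34 pairs with both rows tested, with standard errors as bars. The 3 pairs with both rows called (black) lie at upper left, and DDX19A, DCAF8, RNFT1 and WDR5B lie high with the divergent row near 0.

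Some of the rows opposite the named transcripts are themselves known genes. SLC35G2, whose 3′ end is opposite NCK1-DT, fell by 0.38 (adjusted p 0.0102 by edgeR's quasi-likelihood test) as NCK1-DT fell by 0.62. PCF11, a transcription termination factor gene opposite ANKRD42-DT, had a value of -0.05, and XPO1 and KPNA1, nuclear transport receptor genes opposite USP34-DT and WDR5B-DT, had -0.10 and 0.00, none of them called.

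Between the lines, over both treatments, 28 rows differed in G3BP1 from the mean of NES and NLS (33.7%, beside 28.7% of all rows tested and 38.5% of those with a sum of at least 240). Of these 19 were higher (22.9%, beside 15.3% of all rows) and 9 lower (10.8%, beside 13.4%). This split depended on scaling. With total counts in place of TMM the median of all rows shifted to -0.12, and 14 members were called higher and 20 lower. The G3BP1 libraries lay wholly above the other 8 libraries in 10 members (12%, beside 5.45% of all rows) and wholly below in 1, ZNF691-DT (1.20%, beside 3.67%). All rows include less counted ones, and the shares wholly above or below were not taken for rows with a sum of at least 240. The 10 were COQ7-DT, MAGOH-DT, NQO1-DT, GARS1-DT, IL10RB-DT, LRRC8C-DT, TMED2-DT, B4GAT1-DT, MVP-DT and HEATR5A-DT, of which LRRC8C-DT, TMED2-DT and B4GAT1-DT, like ZNF691-DT, were named after their values were seen. Each genotype was 1 line, so a difference of genotype and one of that line's history cannot be told apart.

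COQ7-DT, beside a gene of coenzyme Q synthesis, differed most. In G3BP1 it had 50.0 and 63.4 CPM in mock and 47.1 and 48.3 CPM in arsenite libraries. In NES the values were 25.0 and 13.2 CPM in mock and 22.2 and 20.3 CPM in arsenite libraries, and in NLS 14.8, 8.40, 9.85 and 10.4 CPM in the same order. All G3BP1 libraries were above all others, while NES and NLS overlapped. The log2 difference of G3BP1 from the others was 1.81 ± 0.16 (SE; adjusted p 5.73e-18 by edgeR's quasi-likelihood test), and that of NLS from NES was -0.90 ± 0.24 (SE; adjusted p 0.00539 by the same test). COQ7 itself held 17 counts, and TMC7, with 54.6% of the COQ7-DT exon bases opposite, 13.

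MAGOH-DT, beside the gene of an exon junction complex core protein, separated all 3 lines. It had 226.8 and 192.9 CPM in mock and 212.6 and 192.5 CPM in arsenite libraries of G3BP1. The NES values were 143.6, 173.5, 166.7 and 143.6 CPM and the NLS values 55.1, 84.7, 64.4 and 74.8 CPM, in the same order. No 2 lines overlapped, and neither treatment changed the order. G3BP1 was higher than the others by 0.97 ± 0.08 (SE, log2; adjusted p 1.55e-20 by edgeR's quasi-likelihood test). NLS was below NES, with a log2 difference of -1.17 ± 0.10 (SE; adjusted p 2.04e-18 by the same test). Arsenite had an average effect of -0.03 on this row.

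NQO1-DT combined a line difference with an arsenite effect. It had 336.3 and 329.8 CPM in mock and 372.0 and 413.6 CPM in arsenite libraries of G3BP1, 176.0, 199.9, 235.4 and 246.7 CPM in NES and 199.6, 171.8, 225.9 and 223.1 CPM in NLS. In each line both arsenite libraries were above both mock libraries. Its line difference was 0.79, that of GARS1-DT, beside the glycyl-tRNA synthetase gene, 0.74, and those of IL10RB-DT, beside a cytokine receptor gene, and GLCCI1-DT 0.66 each. GARS1-DT had 323.8 ± 15 CPM in G3BP1 libraries, 200.6 ± 16.2 CPM in NES libraries and 186.6 ± 16.6 CPM in NLS libraries (SD, n = 4 each). The same line difference of the coding rows was -0.25 for NQO1 and -0.10 for GARS1, neither called.

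In NLS against NES 8 rows differed (9.64%, beside 10.9% of all rows), 2 higher (2.41%, beside 4.82%) and 6 lower (7.23%, beside 6.13%). The NLS libraries lay wholly above the NES libraries in 2 members (2.41%, beside 4.56% of all rows) and wholly below them in 6 (7.23%, beside 5.08%). The called rows were, besides MAGOH-DT and COQ7-DT, ZNF584-DT (-0.60), CEP192-DT (-0.33), STX5-DT (-0.31) and WDR5B-DT (-0.15), lower in NLS, and CTDSPL2-DT (0.39) and PGLS-DT (0.32), higher in NLS. STX5-DT was named after its value was seen. CTDSPL2-DT, beside a phosphatase gene, had 258.3 ± 13.1 CPM in NLS, 198.0 ± 8.26 CPM in NES and 171.4 ± 20.5 CPM in G3BP1 (SD, n = 4 each), and the NLS libraries overlapped with neither other line. ZNF584-DT had 59.2 ± 6.42 CPM in NES libraries, 39.0 ± 3.94 CPM in NLS libraries and 37.7 ± 5.63 CPM in G3BP1 libraries (SD, n = 4 each), with NES above both. The CEP192-DT and PGLS-DT calls were lost without 6 and without 4 of the single libraries, and with DESeq2 (adjusted p 0.120 and 0.159). Total counts ended that of CEP192-DT (0.0523) and fitting with no filter that of PGLS-DT (0.0928).

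**Figure D5:**
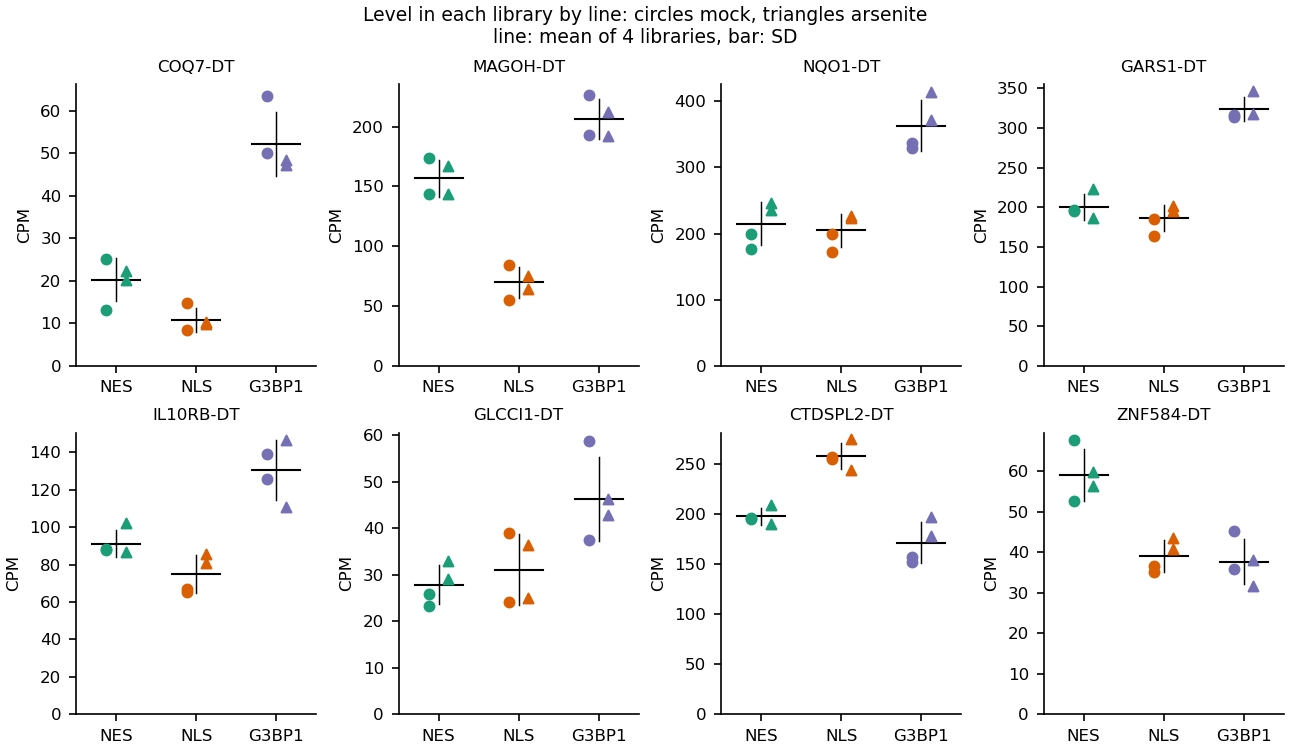
CPM (vertical axes, from 0) of 8 divergent transcript rows in each library by line, mock as circles and arsenite as triangles, with the mean of 4 libraries and a bar of 1 SD. The G3BP1 libraries stand above all others in COQ7-DT, MAGOH-DT, NQO1-DT, GARS1-DT and IL10RB-DT, the NLS libraries in CTDSPL2-DT and the NES libraries in ZNF584-DT.

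Rows of genes for the machinery that ends, caps or degrades divergent RNA were seldom called. Of 60 listed genes 40 passed the filter, 6 rose (15%, beside 19.4% of all rows tested) and 4 fell (10%, beside 18.6%), and their median log2 fold change was -0.03, beside -0.01 over all rows. The exosome subunit genes EXOSC10 (0.57), EXOSC5 (0.48) and EXOSC8 (0.20), the cap-binding gene NCBP2 (0.64), the Integrator gene INTS8 (0.45) and the pausing factor gene NELFCD (0.39) rose. HEXIM1, an inhibitor of P-TEFb, fell by 0.50, the cleavage factor genes CSTF3 and WDR33 by 0.38 and 0.18, and the Integrator endonuclease gene INTS11 by 0.22. All but NELFCD of these 10 have an exon of another gene on the other strand, and the doubt about strand holds for all 10.

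The rows most like the extremes over the 12 libraries, by Pearson's r of log2(CPM + 1) among 7461 rows, were found for description. For PHLDA1-DT they were TMCO6 (0.934), ENSG00000279696 (0.930) and DHRS7 (0.912), and for OSER1-DT they were BTBD6 (0.958), COPG2IT1 (0.949) and PIEZO1 (0.939). The average arsenite effect on these rows was 1.19, 0.37 and 0.77 for the first 3 and -1.03, -1.29 and -0.90 for the last 3, on the log2 scale.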

How the data were processed

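RNA of whole cells from 12 libraries was measured. A directional kit and ribosomal RNA depletion were used on Trizol RNA, per the labels' protocols. The deposited table holds unnormalized whole-number counts for 61255 rows in 16 columns, of which 4 matched no sample and were not used. Trim Galore, Subread, featureCounts, edgeR and the build GRCh38.p13 are named per the submitters' processing notes; versions, annotation release and strand setting are not given in the sources used here. The rows used to check the strand were chosen after the table was seen.

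Counts as deposited were fitted over all rows with edgeR 4.0.16 in R 4.3.3 (TMM, filterByExpr with a minimum count of 10 and a minimum total of 15, quasi-likelihood F test, Benjamini-Hochberg over 13108 rows). Average and line effects came from a model with line and treatment (8 residual degrees of freedom), and effects within lines and their joint difference from a model with 1 mean per group (6 residual degrees of freedom). CPM values used TMM-scaled library totals. The 2 libraries of each group differed beyond counting noise (chi-square per degree of freedom 1.11 to 1.39), so none was merged. Standard errors came from the quasi-likelihood fit and include the spread between libraries, while the floors cover counting error only. Scripts were tested on simulated data.

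Gene models came from GENCODE 29, and promoter windows from RefSeq on GRCh38.p14. The partner is the gene named before -DT. Named rows were the 8 largest rises and falls among called rows with 1 sign in 3 lines, the 6 largest differences in each line contrast, the 5 highest sums and 3 rows on each side of the minimum sum. The members, lists and rules were chosen with earlier results of these data known. Alternatives were DESeq2 1.42.0 as test or for size factors, total counts, no filter, a mean of at least 1 CPM, adjusted p under 0.01, a replicate block and leaving out each library. Some results on single genes are not reported here.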

Additional observations from a re-analysis of the deposited data

How the results depend on the processing

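The counts of rows changed by arsenite on average kept their values within 1.5 times under every alternative listed in the methods, at 17 to 20 higher and 9 to 14 lower, and the joint test called 0 rows under each. With the DESeq2 test 3 rows were called in NES, 3 in NLS, 2 in G3BP1 and 4 in NLS against NES, and 6 coding partners were higher. At an adjusted p under 0.01 there were 10 in NLS, 5 in G3BP1, 4 in NLS against NES and 6 higher partners. With no filter 7 rows were called in G3BP1 and 6 partners were higher, where more rows entered the adjustment. Leaving out 1 library at a time gave 18 to 20 rows higher and 10 to 13 lower on average, 9 to 14 in NES, 6 to 16 in NLS, 5 to 13 in G3BP1, 23 to 30 for G3BP1 against the others, 6 to 10 for NLS against NES, 6 to 10 partners higher and 2 to 3 lower. The 6 higher partners came without NLS mock replicate 2 or NLS arsenite replicate 1. With total counts in place of TMM, G3BP1 against the others had 34 calls, the calls within G3BP1 were 4 higher and 7 lower in place of 7 and 6, and NLS against NES had 4 in each direction in place of 2 and 6. The cause of these differences was not tested. Partner values near 0 that were never called changed sign: GARS1 was 0.00 with DESeq2 size factors and between -0.14 and 0.12 with a library left out, HEATR5A -0.01 with total counts and between -0.08 and 0.15, NDUFA6 -0.01 with total counts and between -0.08 and 0.18, NQO1 between -0.11 and 0.03 and USP34 between -0.10 and 0.02. Same-numbered libraries did not deviate together, and the NES, NLS and G3BP1 correlations were -0.056, -0.014 and 0.009 over 6521 rows. With the replicate block there were 19 rows higher and 13 lower on average, 15 in NES, 17 in NLS, 13 in G3BP1, 0 in the joint test, 28 for G3BP1 against the others and 9 for NLS against NES, with 10 partners higher and 2 lower. At the floor of 3 counts, a change could not be read in the 28 partners with no more than that in any library.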
